A study of Homo sapiens with 16 samples.

Results

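The genes of 9 surface proteins that mark myeloma cells, or that antibodies and engineered T cells are directed against, were followed in LP-1 cells with and without extra cIAP2: SLAMF7, SDC1 (CD138), CD38, TNFRSF17 (BCMA), TNFRSF13B (TACI), CD27, CD28, CD40 and CD47. Array probes were assigned to the 9 genes through their RefSeq accession, which gave 11 probes of the 50599 gene probes on the array, and 20499 gene symbols had a probe in all. CD28 and CD40 had 2 probes each, and their brighter probe is given first. A probe was tested where both replicates of 1 or more conditions lay well above background, which held for all 11 member probes and for 33731 probes in all, and these were tested together.

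LP-1 is a human multiple myeloma (MM) cell line in which TRAF3, a repressor of the non-canonical NF-κB pathway, is deleted or mutated, and every group below shares this lesion. LP-1-cIAP2-eGFP cells carried a lentiviral vector for cIAP2 and eGFP, whereas control (LP-1-eGFP) cells carried the vector with eGFP alone, and both had been sorted for eGFP. Each line was left untreated or given 10 nM of the proteasome inhibitor bortezomib, and RNA was collected after 6 h or 24 h. With 2 biological replicates per condition, the 8 conditions took up 16 arrays, and this number limits the precision. The sources give 1 transduced population of each line, so the line effect compares these populations. The comparisons ask which antigen genes differ with cIAP2 overexpression, which respond to bortezomib, and whether the response differs between the lines. Values are log2 intensities of a probe after quantile normalization; differences are log2 fold changes with their standard error (SE) and an adjusted p from limma. The average line effect over the 4 treatment and time conditions was called at an adjusted p under 0.001 with more than 2-fold between the untreated lines, and every other comparison at an adjusted p under 0.05. Signals of different probes are not on a common scale, so levels are compared only within a probe.

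Plasma cells, from which myeloma arises, carry CD38, the heparan sulfate proteoglycan SDC1 and SLAMF7 on their surface, and they depend for survival on the receptors TNFRSF17 and TNFRSF13B, which bind the ligands BAFF and APRIL. CD27, CD28 and CD40 are receptors through which lymphocytes receive costimulation, and CD47 is the signal that keeps macrophages from engulfing a cell by way of SIRPA. Antibodies, antibody-drug conjugates and chimeric antigen receptor T cells use several of these proteins as targets, so the amount of each antigen on the tumor cell matters for their use.

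The cell type given for LP-1 was checked against marker genes. Of 8 plasma cell markers, 7 or 8 were above background on each array. Their summed signal, over the 7 with a value on every array, ranged from 17.21 to 18.69 on the control arrays and from 17.51 to 18.67 on the LP-1-cIAP2-eGFP arrays, with medians of 18.40 and 18.45. Signals of different probes were not ranked against each other, so no most abundant gene is given for a marker list. The sum was lowest on the 4 arrays with bortezomib at 24 h, at 17.21 to 17.62, and the part of this in the results below was not tested. In contrast, the mature B cell genes MS4A1 and PAX5 were above background on 0 of 16 arrays. BIRC3, the gene of cIAP2, was measured by a probe which per the study's methods sees the endogenous transcript alone, so it does not check the transgene. It lay between 13.54 and 13.67 on the 4 untreated control arrays and between 11.92 and 12.13 on the 4 untreated LP-1-cIAP2-eGFP arrays, and its average line effect was -1.16 (SE 0.0748, adjusted p = 7.42e-06). Replicate 1 of bortezomib-treated LP-1-cIAP2-eGFP cells at 24 h stood apart from the other arrays: its median signal was 3.18 and 35.5% of its probes were above background, against 5.73 to 6.64 and 49.0% to 71.1% on the others. That array also held CD2, a T cell gene, at 11.49 where the other arrays lay between 5.23 and 7.82, and CD79A, a B cell gene, at 13.25 against 10.25 to 10.95.

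Promoters of 6 of the 9 members were found in RefSeq (GRCh38.p14), covering 250 bases before to 50 after the start of the gene. Those of SDC1, CD38 and TNFRSF13B are shown because the 3 genes fell with bortezomib at 24 h in both lines, as described below. They lie at chr2:20225426-20225725 on the minus strand, chr4:15778078-15778377 on the plus strand and chr17:16972069-16972368 on the minus strand, and capitals mark matches to CANNTG, the E-box that helix-loop-helix factors bind.
SDC1 promoter: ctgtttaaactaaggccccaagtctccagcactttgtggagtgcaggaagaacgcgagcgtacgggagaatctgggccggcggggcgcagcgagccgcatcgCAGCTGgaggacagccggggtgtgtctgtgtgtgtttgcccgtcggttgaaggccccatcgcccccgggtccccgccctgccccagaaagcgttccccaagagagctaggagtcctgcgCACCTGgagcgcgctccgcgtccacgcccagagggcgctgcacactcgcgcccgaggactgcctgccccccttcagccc
CD38 promoter: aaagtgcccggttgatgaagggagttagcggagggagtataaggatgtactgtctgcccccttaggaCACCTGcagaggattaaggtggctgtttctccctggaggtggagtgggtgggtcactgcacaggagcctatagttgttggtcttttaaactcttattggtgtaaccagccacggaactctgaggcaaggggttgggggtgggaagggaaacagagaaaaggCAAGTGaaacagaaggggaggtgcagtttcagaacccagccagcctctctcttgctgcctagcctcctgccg
TNFRSF13B promoter: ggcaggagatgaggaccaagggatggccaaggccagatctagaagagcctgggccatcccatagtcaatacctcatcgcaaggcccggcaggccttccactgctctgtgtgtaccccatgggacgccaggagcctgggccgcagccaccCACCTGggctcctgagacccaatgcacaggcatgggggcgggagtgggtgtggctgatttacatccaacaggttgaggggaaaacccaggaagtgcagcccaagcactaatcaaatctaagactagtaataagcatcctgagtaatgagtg
CANNTG was present 2 times in the SDC1 promoter shown, 2 times in that of CD38 and 1 time in that of TNFRSF13B, whereas a second SDC1 start had 0 matches. On either strand the motif is common, and 68.7% of all 35116 promoters hold it. The 3 promoters shown hold 1 match each to CACCTG, a form of the same motif that was chosen after the sequences were seen and is found in 20.6% of promoters. CD27 and CD28 had 2 CANNTG matches each, of which 1 was CACCTG, and CD47 had 0. The NF-κB consensus (9.08% of promoters) was not found in these windows, and ACGTG, the core of the hypoxia and stress element (21.4%), was found 1 time, in the CD47 promoter. Such matches describe letters in a window and no binding.

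Between the lines, SLAMF7 and SDC1 were called in the average over treatment and time, both higher in LP-1-cIAP2-eGFP cells, and 7 members were not called. This was 2 of 9 members, where 2.37% of all 33716 probes tested were called (0.608% higher and 1.76% lower). Of the 9, 6 had an unadjusted p under 0.05, and the median of the members was 0.11 against -0.02 for all probes. It was 0.19 without replicate 1 and 0.03 without replicate 2 of bortezomib-treated LP-1-cIAP2-eGFP cells at 24 h. In the single conditions 2 members were called each time, beside 3.09% of probes in untreated cells at 6 h, 2.77% at 24 h, 3.31% under bortezomib at 6 h and 5.92% at 24 h. They were SLAMF7 and SDC1 in the first 3 of these conditions, and SLAMF7 and CD38 under bortezomib at 24 h. With the arrays taken one by one, each LP-1-cIAP2-eGFP array lay beyond each control array in all 4 conditions for 4 of the 9 members, as for 11.5% of all probes: SLAMF7 and SDC1 were higher, and CD38 and CD40 lower.

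**Figure D1:**
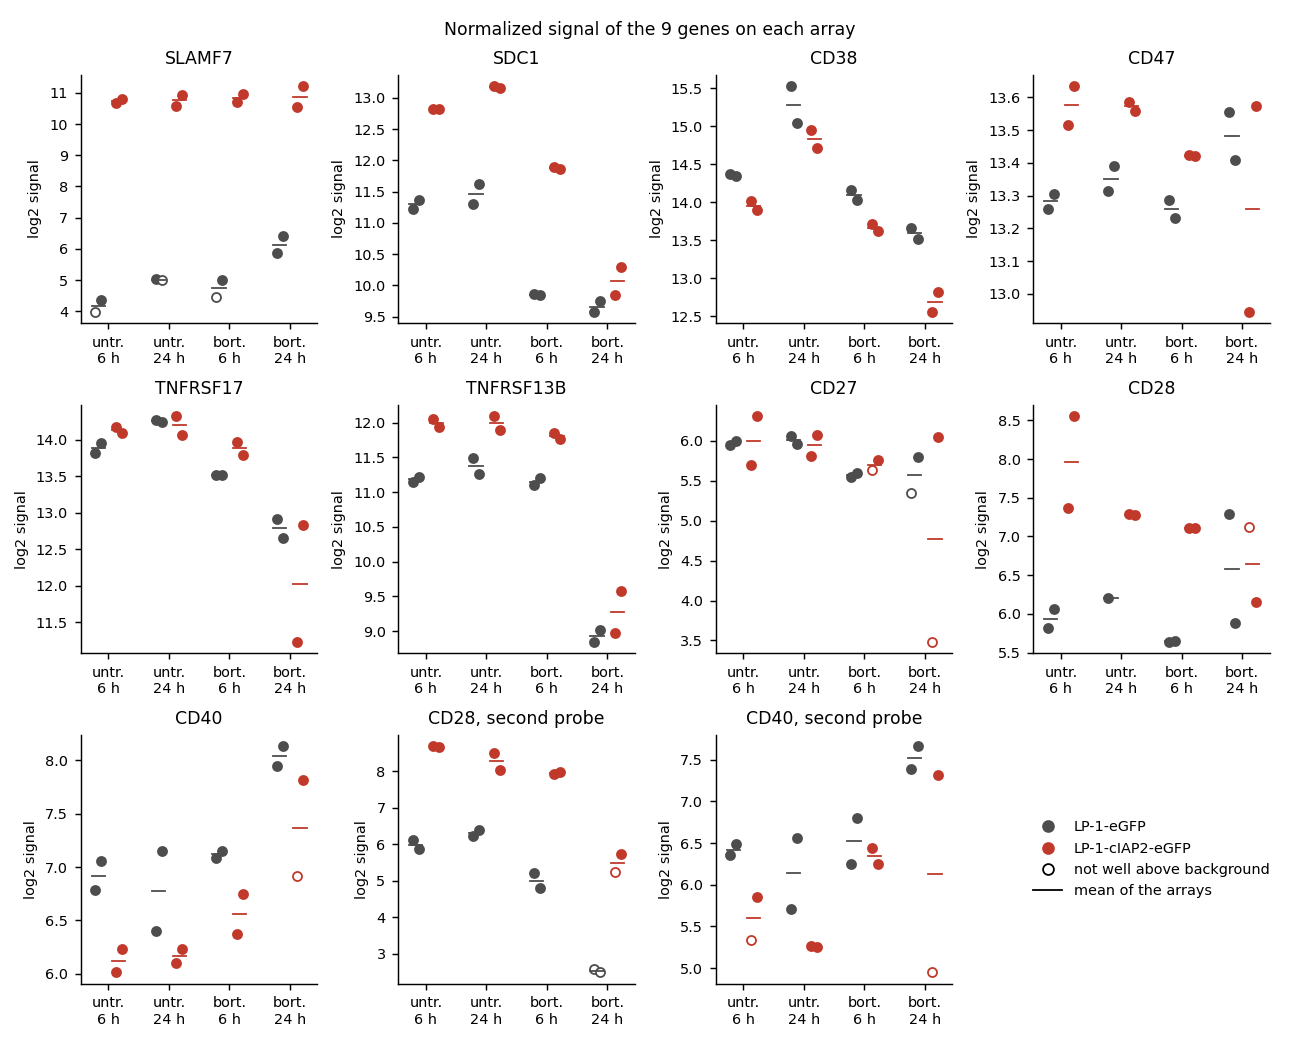
Normalized log2 signal of each member probe on each of the 16 arrays, by treatment and time, with control and LP-1-cIAP2-eGFP arrays side by side; bars are means of the arrays and open points were not well above background. For SLAMF7 the LP-1-cIAP2-eGFP arrays all sit at 10.54 or above and the control arrays at 6.42 or below.

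SLAMF7 is a self-binding receptor of the SLAM family and the target of the antibody elotuzumab, and its line effect was the largest among the 9 members. On the control arrays it read 3.98 and 4.37 in untreated cells at 6 h, and 5.04 and 5.00 at 24 h. With bortezomib the control arrays read 4.45 and 5.02 at 6 h, and 5.85 and 6.42 at 24 h. Untreated LP-1-cIAP2-eGFP cells read 10.68 and 10.81 at 6 h and 10.57 and 10.94 at 24 h, and treated cells 10.71 and 10.98 at 6 h and 10.54 and 11.22 at 24 h. The lines did not overlap in any condition, and SLAMF7 was detected above background on 5 of 8 control arrays against 8 of 8 of the other line, so 3 control arrays hold only an upper limit for it. The fitted line effect averaged 5.79 (SE 0.149, adjusted p = 2.35e-08). It was 6.57, 5.74, 6.11 and 4.75 in untreated cells at 6 h and 24 h and in treated cells at 6 h and 24 h. As 3 control arrays give only upper limits, these are fitted values and not exact folds. The arrays had been placed on 2 slides with different scan dates. Most LP-1-cIAP2-eGFP arrays were on slide 1 and most control arrays on slide 2, so line and slide are partly confounded. A block for slide left 438 probes called in the average line effect in place of 799. In treated cells at 6 h it left 347 in place of 1116, and 2 members were called each time. Line effects of the list genes below are given without this block. Within slides the SLAMF7 difference was 6.32 and 6.83 in untreated cells at 6 h, 5.93 in untreated cells at 24 h and 5.03 in treated cells at 24 h. In treated cells at 6 h each line was on its own slide, which leaves no such value. With the slide as a block the average was 5.88 (adjusted p = 1.34e-06). Normexp background correction, which treats dim spots differently, gave 4.15.

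The SLAM family list held 13 further genes, of which 9 were tested, and 1 was called higher and 0 lower in the average line effect. It was CD48, which binds CD244 on natural killer cells. CD48 lay between 7.63 and 10.92 on control arrays and between 9.59 and 11.88 on LP-1-cIAP2-eGFP arrays, and its average line effect was 1.44 (SE 0.167, adjusted p = 0.000296). CD48 was called in the same direction in untreated cells at 6 h (1.55, adjusted p = 0.0377) and not at 24 h (0.88, adjusted p = 0.293). Among the 3 genes whose signal followed SLAMF7 most closely over the 16 arrays were LAX1, a membrane adaptor of lymphocytes (Pearson r = 0.975), and SPEF2, a gene of sperm flagella (0.974), out of 16381 genes. The arrays form 2 groups on these genes, so the correlations restate the line difference and carry no test.

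SDC1 is the syndecan that defines plasma cells in diagnosis. In untreated control cells it read 11.22 and 11.37 at 6 h and 11.30 and 11.62 at 24 h. In untreated LP-1-cIAP2-eGFP cells it read 12.82 and 12.82 at 6 h and 13.19 and 13.16 at 24 h. SDC1 was thus higher in the latter by 1.52 at 6 h (SE 0.174, adjusted p = 0.00139) and 1.71 at 24 h (adjusted p = 0.000706), and its average line effect was 1.42 (SE 0.0869, adjusted p = 5.10e-06). The difference was 2.03 under bortezomib at 6 h (adjusted p = 0.000257), but 0.40 at 24 h (adjusted p = 0.195), where the LP-1-cIAP2-eGFP arrays read 9.84 and 10.29 and the control arrays 9.57 and 9.74. Within slides the values were 1.45 and 1.60 in untreated cells at 6 h, 1.69 at 24 h and 0.49 under bortezomib at 24 h. Under bortezomib at 6 h each line was on its own slide, so no such value exists.

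The list of other syndecans, enzymes of heparan sulfate and shedding genes held 16 tested genes, of which 1 was called higher and 1 lower in the average line effect. SULF2, an extracellular sulfatase that trims heparan sulfate chains, was higher in LP-1-cIAP2-eGFP cells by 2.25 (SE 0.316, adjusted p = 0.000958). Its untreated arrays read 12.43 to 12.78 in LP-1-cIAP2-eGFP cells and 9.47 to 10.65 in control cells, but it was called in none of the single conditions (adjusted p of 0.0628 to 0.212). NDST1, which starts the sulfation of these chains, was lower (-1.10, SE 0.10, adjusted p = 6.34e-05). SULF2 was not called on the authors' normalized values, with a difference of 2.26, or after normexp correction, with 1.92.

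CD38, a surface enzyme that consumes NAD and the target of daratumumab, lay lower in LP-1-cIAP2-eGFP than in control cells in each condition, with no overlap of the arrays. Untreated control cells read 14.38 and 14.34 at 6 h and 15.53 and 15.04 at 24 h, and untreated LP-1-cIAP2-eGFP cells 14.01 and 13.90 at 6 h and 14.95 and 14.71 at 24 h. The average line effect of CD38 was -0.55 (SE 0.0923, adjusted p = 0.00279) and did not pass the call. Under bortezomib at 24 h the difference was -0.90 (SE 0.185, adjusted p = 0.0213), and without the array that stood apart it was -0.78 (adjusted p = 0.0693). Among 8 tested genes of nucleotide metabolism, 1 was higher and 0 lower in the average line effect. It was NT5E (CD73), which makes adenosine at the cell surface, with 1.56 (SE 0.138, adjusted p = 5.10e-05), whereas its second probe gave 0.70 (adjusted p = 0.240), and with normexp NT5E gave 0.83 and was not called.

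TNFRSF17 and TNFRSF13B, the receptors of BAFF and APRIL, were not called in the average line effect or in any of the 4 conditions. TNFRSF17 read 13.81 and 13.96 in untreated control cells at 6 h and 14.26 and 14.24 at 24 h, and 14.17 and 14.09, and 14.32 and 14.06, in untreated LP-1-cIAP2-eGFP cells. Its arrays overlapped between the lines at 24 h, and its average line effect was -0.05 (SE 0.197, adjusted p = 0.895). TNFRSF13B read 11.15 and 11.22, and 11.49 and 11.26, in untreated control cells at 6 h and 24 h. It read 12.06 and 11.93, and 12.09 and 11.89, in untreated LP-1-cIAP2-eGFP cells, without overlap. Its average line effect of 0.61 (SE 0.0979, adjusted p = 0.00216) fell short of the call, as the 2-fold limit and the p of 0.001 were both missed. Over the untreated arrays of both times, which serve the 2-fold limit, the difference was 0.72 (SE 0.139, adjusted p = 0.0117). None of the 7 tested genes of the BAFF and APRIL system, ligands and TRAF adaptors, was called in the average line effect by limma (0 higher and 0 lower, with 4 at an unadjusted p under 0.05). Of the 6 subunits of γ-secretase, the protease that sheds TNFRSF17 from the surface, 2 were called lower and 0 higher. These were APH1B with -1.46 (SE 0.0903, adjusted p = 5.37e-06) and the catalytic subunit PSEN2 with -1.16 (SE 0.0600, adjusted p = 1.62e-06), and both were also lower at the adjusted p of 0.05 in each of the 4 single conditions, where 2 of the 6 subunits were called each time.

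**Figure D2:**
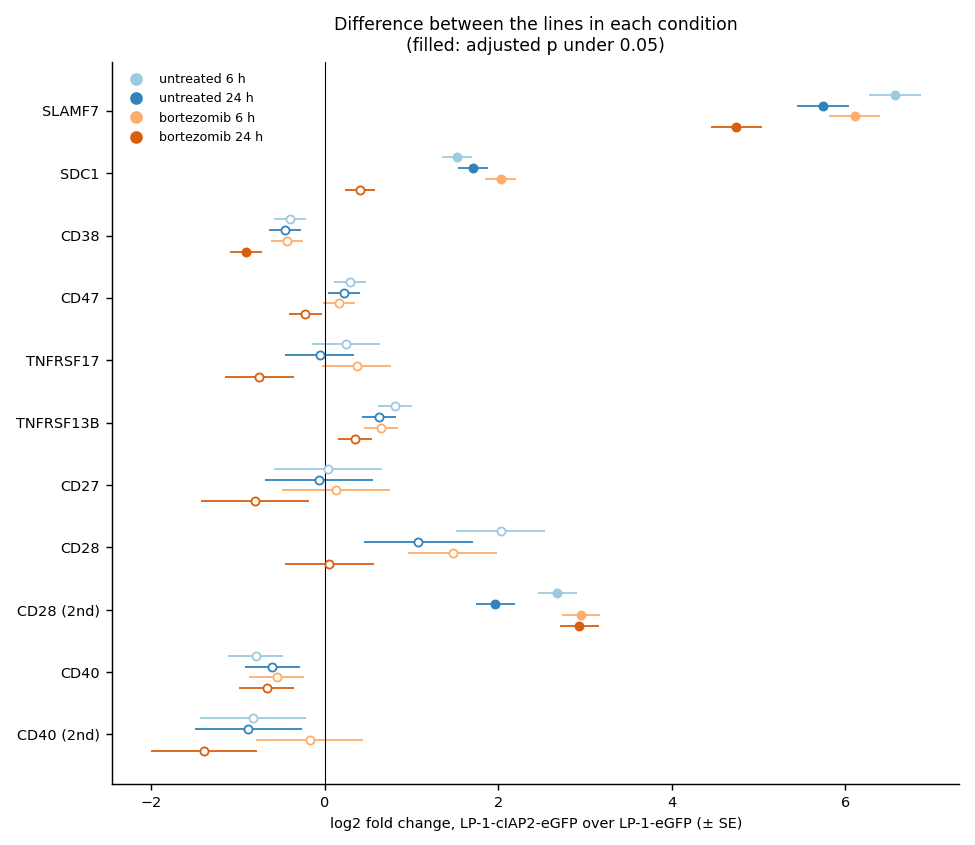
Line effect (log2, LP-1-cIAP2-eGFP minus control) of each member probe in each of the 4 conditions, with bars of 1 SE; filled points were called at an adjusted p under 0.05. SLAMF7 stands at 4.75 to 6.57, and SDC1 at 1.52 to 2.03 in all conditions but bortezomib at 24 h, where it is at 0.40.

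Of the costimulatory receptors, CD28 gave 2 probes that disagreed. Its brighter probe lacked a value on 1 untreated control array at 24 h, where its spot was an outlier, and gave an average line effect of 1.16 (SE 0.274, adjusted p = 0.0207), which was not called. This probe lay between 5.63 and 7.29 on the control arrays and between 6.16 and 8.56 on the LP-1-cIAP2-eGFP arrays, with overlap at 24 h under bortezomib. Its second probe read 6.11 and 5.87, and 6.22 and 6.39, in untreated control cells at 6 h and 24 h. In untreated LP-1-cIAP2-eGFP cells the second probe read 8.69 and 8.66, and 8.51 and 8.04. It was higher in the latter in each of the 4 conditions, with an average of 2.63 (SE 0.111, adjusted p = 4.43e-07), and the lines did not overlap. In treated cells at 24 h neither control array and 1 of 2 LP-1-cIAP2-eGFP arrays was above background for this probe, so no fold could be bounded there. The call of this probe in that condition was lost with normexp (0.52, adjusted p = 0.119) and with array weights (adjusted p = 0.0547). With normexp the average of the second CD28 probe was 1.35. CD40, the receptor of CD40LG on B lineage cells, lay lower in LP-1-cIAP2-eGFP cells on all arrays of each condition, with untreated values of 6.40 to 7.15 in control and 6.01 to 6.23 in LP-1-cIAP2-eGFP cells. On the array that stood apart CD40 was not above background. Its average line effect was -0.66 (SE 0.159, adjusted p = 0.0191), and that of its second probe -0.82 (SE 0.306, adjusted p = 0.109), and neither was called. CD27, the receptor of CD70, differed by -0.18 (SE 0.312, adjusted p = 0.760), and its untreated arrays lay between 5.94 and 6.05 in control and between 5.69 and 6.31 in LP-1-cIAP2-eGFP cells.

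CD47 varied little, with 13.26 to 13.39 on untreated control arrays and 13.52 to 13.64 on untreated LP-1-cIAP2-eGFP arrays. The untreated arrays did not overlap, yet its average line effect was 0.11 (SE 0.0932, adjusted p = 0.484). None of 8 tested ligands and partners of the members (0 higher, 0 lower, 5 at an unadjusted p under 0.05) was called in the average line effect by limma, and in single conditions PECAM1 was called lower under bortezomib at 24 h (-2.32, adjusted p = 0.00306). Among 9 tested checkpoint genes 1 was lower in the average: NECTIN2, a ligand of TIGIT, with -2.08 (SE 0.129, adjusted p = 1.27e-05). Its second probe gave -2.43 (adjusted p = 0.00142), which missed the call.

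With bortezomib, 4 of the 9 members fell by 24 h in each line. In control cells 6 of the 9 members were called at 24 h, 4 lower and 2 higher, where 21.0% of all probes were called (9.81% higher and 11.2% lower). A total of 5 were called in LP-1-cIAP2-eGFP cells, 4 lower and 1 higher, where 28.6% of probes were called (11.1% higher and 17.5% lower). These shares of all probes also stand beside the counts of list genes at 24 h given below. SDC1, CD38, TNFRSF17 and TNFRSF13B fell in both lines, CD40 rose in both, and SLAMF7 rose in control cells. The median of the members was -0.44 in control and -1.18 in LP-1-cIAP2-eGFP cells, against -0.03 and -0.16 for all probes, and in the latter -1.12 against -0.02 without the array that stood apart and -2.27 against -0.30 without the other treated array. At 6 h, 1 member was called in each line, SDC1, beside 1.95% of probes in control and 1.09% in LP-1-cIAP2-eGFP cells. Each line was compared with its own untreated arrays, so the 2 sets of values share no array. As the RNA came from whole cultures, fewer cells that express a gene and less of its RNA per cell cannot be told apart.

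**Figure D3:**
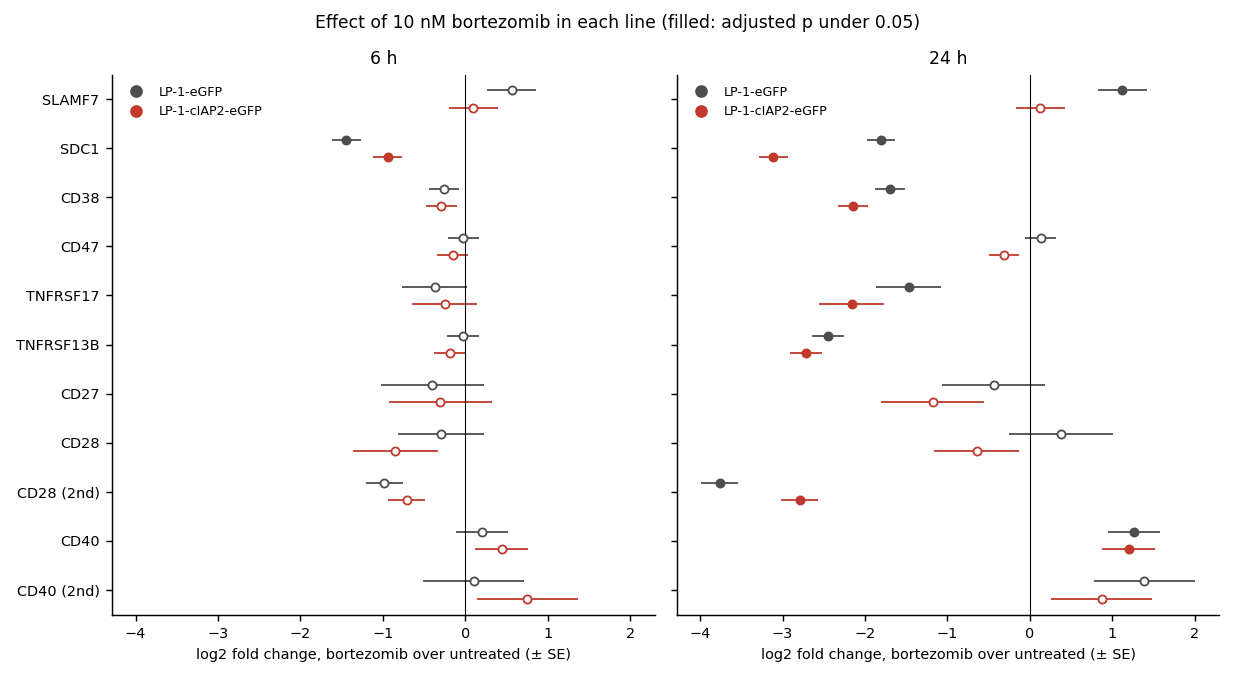
Bortezomib effect (log2, treated minus untreated) of each member probe at 6 h and at 24 h in control and LP-1-cIAP2-eGFP cells, with bars of 1 SE; filled points were called at an adjusted p under 0.05. At 24 h SDC1, CD38, TNFRSF17 and TNFRSF13B lie between -1.47 and -3.11 in both lines.

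SDC1 was the member called as early as 6 h. Under bortezomib it read 9.86 and 9.85 in control cells at 6 h, below both untreated arrays, and fell (-1.44, SE 0.174, adjusted p = 0.00491). This call was lost under 3 of 25 alternatives. In LP-1-cIAP2-eGFP cells SDC1 read 11.90 and 11.86 at 6 h, a difference of -0.94 (adjusted p = 0.0389). That call was lost under 15 of 25, among them scaling of the arrays to their 75th percentile (-0.89, adjusted p = 0.158). At 24 h the change of SDC1 was -1.80 in control (SE 0.174, adjusted p = 0.000108) and -3.11 in LP-1-cIAP2-eGFP cells (adjusted p = 5.58e-06). The effects at 6 h and 24 h were not tested against each other. The treated arrays at 24 h were the lowest of each line, and SDC1 was 1 of 2 members with an unadjusted p under 0.05 for the difference between the lines, with -1.31 (SE 0.246, adjusted p = 0.152). In its list of 16 genes, control cells had 4 higher and 3 lower, and LP-1-cIAP2-eGFP cells 4 higher and 4 lower. Without the array that stood apart 4 genes were lower in control cells, with the epimerase GLCE added, and 3 in the other line. SDCBP (syntenin, which binds the syndecan tail), ADAM17 (a sheddase), SDC4 and the chain polymerase EXT2 rose in both lines, ADAM17 by 1.48 and 1.73 and SDCBP by 1.18 and 1.89. NDST1 (-2.26 and -1.25) and the sulfotransferase HS2ST1 (-0.87 and -1.36) fell in both. SULF2 fell in LP-1-cIAP2-eGFP cells (-2.32, adjusted p = 0.0214), a change that became -1.45 (adjusted p = 0.133) without the array that stood apart. SULF1, a related sulfatase, was at least 2.22-fold lower in control cells, since neither treated array was above background, and it is counted among the 4 lower in LP-1-cIAP2-eGFP cells although neither treated array was above background there and no fold could be bounded.

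CD38 read 13.66 and 13.52 in treated control cells and 12.56 and 12.82 in treated LP-1-cIAP2-eGFP cells at 24 h, below all untreated arrays of the line. It fell in both lines, with changes of -1.70 (SE 0.185, adjusted p = 0.000204) and -2.14 (adjusted p = 4.44e-05). In untreated cells CD38 was higher at 24 h than at 6 h by 0.90 (SE 0.131), although its adjusted p was 0.141. No member was called for time, where 0.0089% of probes were called, and 1 member had an unadjusted p under 0.05. Within the slide that held both treatments, the effect at 24 h was -1.77 in control and -2.27 in LP-1-cIAP2-eGFP cells. Among the 8 nucleotide genes, 1 rose and 2 fell in control cells and 2 rose and 1 fell in LP-1-cIAP2-eGFP cells. In the same comparisons 21.0% and 28.6% of all probes were called. NAMPT, the enzyme that regenerates NAD, rose by 2.27 (SE 0.126) and 3.33, and its second probe by 2.68 and 3.80. ADA, which degrades adenosine, fell in both lines (-1.96 and -3.46). ADORA2A, an adenosine receptor, fell in control cells (-1.25, adjusted p = 0.0267) and gave 0.09 in LP-1-cIAP2-eGFP cells, and its second probe gave -0.52 in control cells (adjusted p = 0.473). NT5E rose in the latter by 1.01 (adjusted p = 0.0218), which was 1.04 (adjusted p = 0.0566) without the array that stood apart.

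TNFRSF13B had the largest bortezomib effect at 24 h in the mean of both lines, taking the brighter probe of each member. It read 8.84 and 9.01 in treated control cells and 8.98 and 9.57 in treated LP-1-cIAP2-eGFP cells, and these 4 arrays were its lowest. The change was -2.45 in control (SE 0.196, adjusted p = 4.22e-05) and -2.72 in LP-1-cIAP2-eGFP cells (adjusted p = 1.68e-05), while at 6 h the values were -0.03 and -0.19. TNFRSF17 read 12.91 and 12.66 in treated control cells and 11.23 and 12.83 in treated LP-1-cIAP2-eGFP cells. It fell in both lines, with changes of -1.47 (SE 0.394, adjusted p = 0.0247) and -2.16 (adjusted p = 0.00280). The call of TNFRSF17 in control cells was lost with normexp (-1.43, adjusted p = 0.242) and without any 1 of the 4 control arrays at 24 h (adjusted p of 0.0772 to 0.116), and in LP-1-cIAP2-eGFP cells without the array that stood apart the change was -1.36 (adjusted p = 0.000437). The genes that followed TNFRSF13B most closely over the 16 arrays were MZB1, a chaperone of antibody-secreting cells (Pearson r = 0.991), NUP210, a nuclear pore protein (0.990), and PM20D2, a peptidase (0.989), given as a description. Of the 7 genes of the BAFF and APRIL system, 2 rose and 0 fell in each line, where 9.81% and 11.1% of all probes rose. TNFSF13B, which encodes BAFF, rose by 1.25 (SE 0.312) in control and 1.45 in LP-1-cIAP2-eGFP cells, and the adaptor TRAF6 by 1.39 (SE 0.132) and 1.41. Of the γ-secretase subunits, PSEN2 fell in both lines (-1.20 and -1.06). NCSTN (0.77 and 0.57) and PSENEN (0.58 and 0.56) were called higher in both, and APH1B (0.67) in LP-1-cIAP2-eGFP cells. With 75th percentile scaling none of these 3 was called higher.

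CD40 was the member that rose in both lines at 24 h, from 6.40 and 7.15 to 7.94 and 8.13 in control cells and from 6.10 and 6.23 to 6.91 and 7.82 in LP-1-cIAP2-eGFP cells. The changes were 1.27 (SE 0.318, adjusted p = 0.0183) and 1.20 (adjusted p = 0.0191), and the second probe gave 1.39 (adjusted p = 0.155) and 0.87 (adjusted p = 0.313). Without the array that stood apart, CD40 rose by 1.65 in LP-1-cIAP2-eGFP cells (adjusted p = 0.00352), and its second probe was called there as well (2.05, adjusted p = 0.00339). After normexp correction neither change was called, at 0.89 and 0.36. Over all alternatives the call of the brighter CD40 probe was lost under 4 of 24 in control and 6 of 24 in LP-1-cIAP2-eGFP cells. SLAMF7 rose in control cells by 1.12 (SE 0.299, adjusted p = 0.0244), from a level near background, and differed by 0.13 in LP-1-cIAP2-eGFP cells (adjusted p = 0.779). The call in control cells was lost under 5 of 24 alternatives, among them 75th percentile scaling (1.29). After normexp correction the values were 0.50 in control (adjusted p = 0.0982) and 0.68 in LP-1-cIAP2-eGFP cells (adjusted p = 0.0221). CD28 again differed by probe: the brighter one gave 0.38 (SE 0.632) in control and -0.64 (SE 0.516) in LP-1-cIAP2-eGFP cells, with adjusted p of 0.775 and 0.380. Its second probe was at least 3.43-fold lower in treated control cells, where neither array was above background, and fell in LP-1-cIAP2-eGFP cells (-2.79, adjusted p = 2.81e-05), where the array that stood apart was not above background for it and the value without that array was -2.55 (adjusted p = 0.000116).

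CD27 and CD47 did not pass the test at 24 h. CD27 read 5.35 and 5.79 in treated control cells and 3.48 and 6.05 in treated LP-1-cIAP2-eGFP cells, where the lower value is of the array that stood apart and was not above background. Its effect was -0.44 (SE 0.625, adjusted p = 0.731) in control and -1.18 (adjusted p = 0.188) in LP-1-cIAP2-eGFP cells, and the latter became 0.11 without that array. CD47 read 13.56 and 13.41, and 12.94 and 13.57, with effects of 0.13 (SE 0.186) and -0.31, the latter 0.00 without the same array. Of the ligands and partners, PECAM1, which CD38 binds, fell in control (-3.39, SE 0.308) and LP-1-cIAP2-eGFP cells (-4.85). Both other probes of PECAM1 were also called lower in each line. QPCTL, which modifies CD47 so that SIRPA recognizes it, fell in both lines (-1.17 and -1.34). CD70, the ligand of CD27, rose by 0.80 in LP-1-cIAP2-eGFP cells (adjusted p = 0.00617) and differed by 0.39 in control cells. In control cells 0 of the 8 ligands and partners were higher and 2 lower, and in LP-1-cIAP2-eGFP cells 1 was higher and 2 lower. The share of all probes called there was 21.0% and 28.6%. CD86, a ligand of CD28, read 8.27 and 8.46 in untreated LP-1-cIAP2-eGFP cells at 24 h and 6.94 and 11.57 in treated ones, the lower value being of the array that stood apart. Its effect there was 0.89 (SE 1.08, adjusted p = 0.567), and without that array, when 2 of the 8 were higher, it was 3.21 (adjusted p = 0.000144). In control cells CD86 read 8.92 and 8.70 untreated and 11.17 and 11.43 treated, with an effect of 2.48 (adjusted p = 0.151, or 0.000117 without the array that stood apart). Of the 9 tested SLAM genes, 3 fell and 0 rose in each line, where 11.2% and 17.5% of all probes fell. CD48 (-2.64, SE 0.334, in control and -1.80 in LP-1-cIAP2-eGFP cells) and CD244 (-2.30 and -1.65) fell in both. LY9 fell in control cells (-2.05) and gave -0.98 in LP-1-cIAP2-eGFP cells (adjusted p = 0.0519), where without the array that stood apart it was called lower (-1.59, adjusted p = 0.000794), while its second probe was called lower in both lines (-1.74 and -1.23). The phosphatase PTPN6 fell in LP-1-cIAP2-eGFP cells (-2.34), and without the same array by less (-1.62, adjusted p = 0.0429), when it was called lower in control cells too (-1.28, adjusted p = 0.0423). A second probe of CD244 gave -1.69 and -0.94 and was not called, and the call in LP-1-cIAP2-eGFP cells was lost with 75th percentile scaling and with normexp. Of the 9 checkpoint genes, 0 were called in control cells by limma, with 0 at an unadjusted p under 0.05, and NECTIN2 rose in LP-1-cIAP2-eGFP cells by 1.74 (adjusted p = 0.000921), although its second probe gave 0.51 (adjusted p = 0.581).

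No member was called for a difference of the bortezomib effect between the lines. At 6 h 0 of 9 members were called by limma and 0 had an unadjusted p under 0.05, where 0.00297% of probes were called. At 24 h 0 of 9 were called and 2 had an unadjusted p under 0.05, SDC1 (-1.31) and SLAMF7 (-0.99, SE 0.423, adjusted p = 0.610), where 0.0712% of probes were called. The median of the members was -0.69 against -0.14 for all probes, and without the array that stood apart it was -0.13 against -0.01. Without replicate 2 of treated LP-1-cIAP2-eGFP cells at 24 h, which leaves that condition to the array that stood apart, it was -0.76 against -0.28. Either way 1 array stands for that condition, so calls made there are not read as results about single members.

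As a comparison, 27 further surface targets and antigens of myeloma were followed, of which 26 had a matched probe and 25 were tested. In the average line effect 4 were higher and 1 lower, beside 0.608% and 1.76% of all probes. GPRC5D, an orphan receptor and a target of bispecific antibodies, read 5.73 to 6.94 on untreated control arrays and 9.87 to 10.35 on untreated LP-1-cIAP2-eGFP arrays. Its average line effect was 2.79 (SE 0.216, adjusted p = 2.23e-05). LAX1 was higher by 2.78 (SE 0.102, adjusted p = 1.71e-07), reading 9.02 to 10.05 in LP-1-cIAP2-eGFP and 6.23 to 7.12 in control cells. The others were IL6R, the interleukin-6 receptor, with 1.90, CD74, the invariant chain, with -1.48, and CD9, a tetraspanin. CD9 was above background on 1 of 8 control and 5 of 8 LP-1-cIAP2-eGFP arrays and is given for untreated cells at 24 h as at least 3.16-fold higher in the latter line. Its call was lost without the array that stood apart (adjusted p = 0.00114), which left 3 of the 25 higher, and after normexp correction. The second probe of IL6R gave 1.38 (adjusted p = 0.00556) and was not called.

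**Figure D4:**
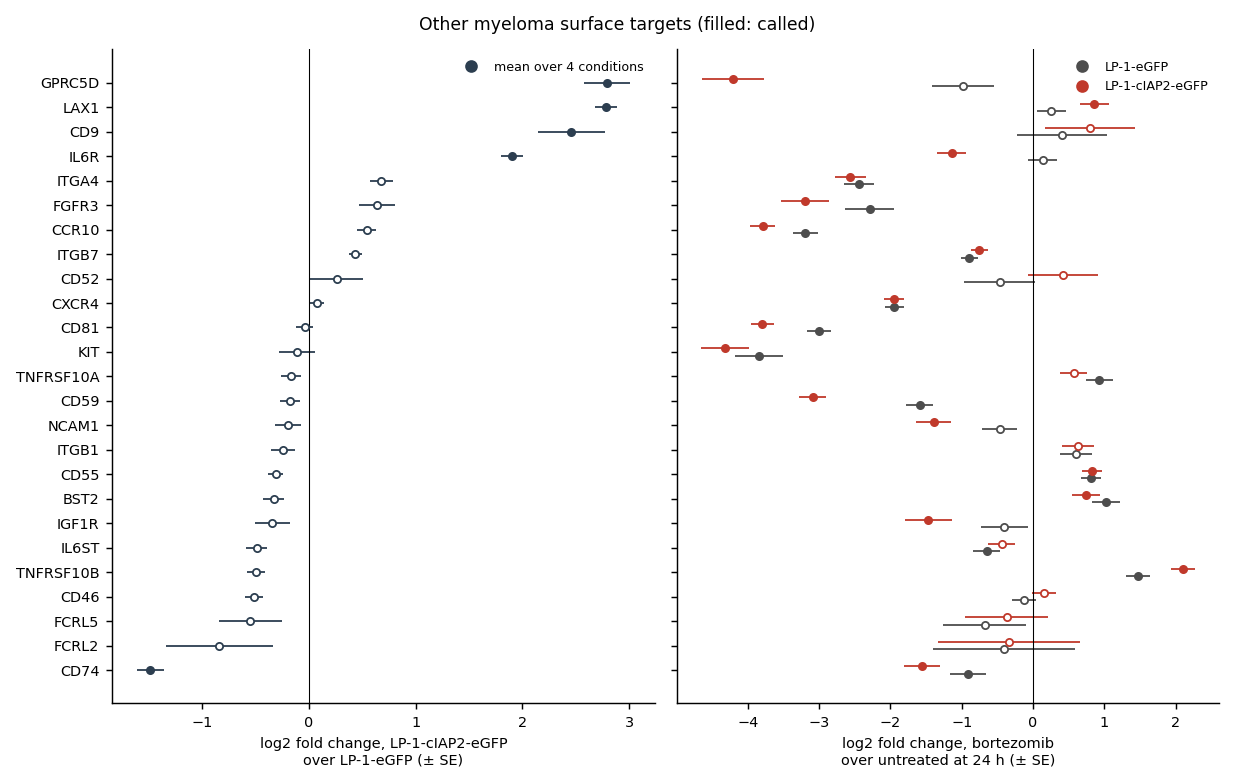
Log2 differences of 25 other myeloma surface targets: on the left the average line effect (LP-1-cIAP2-eGFP minus control), on the right the bortezomib effect at 24 h in each line; filled points were called. GPRC5D and LAX1 lie at 2.79 and 2.78 on the left, and CD81 and CCR10 at or below -3.0 in both lines on the right, while the points of KIT on the right are fitted values against arrays where it was not detected.

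With bortezomib at 24 h, control cells had 10 of the 25 targets lower and 4 higher, and LP-1-cIAP2-eGFP cells had 13 lower and 4 higher. Of all probes 11.2% were lower and 9.81% higher in control cells, and 17.5% and 11.1% in LP-1-cIAP2-eGFP cells. The median of the targets was -0.47 and -0.75, against -0.03 and -0.16 for all probes. Without the array that stood apart, which enters the spread shared by all conditions, 12 were lower in control cells, with GPRC5D and NCAM1 added, and 5 higher in LP-1-cIAP2-eGFP cells. CD81, a tetraspanin, fell in both lines (-3.0, SE 0.166, and -3.80), as did its second probe (-2.74 and -3.90). CCR10, a chemokine receptor of plasma cells, fell likewise (-3.19 and -3.79). FGFR3, a growth factor receptor (-2.29 and -3.20), ITGA4, an integrin of marrow adhesion (-2.44 and -2.56), CXCR4, the marrow homing receptor (-1.94 and -1.95), and CD59, an inhibitor of complement (-1.59 and -3.09), also fell in both. The targets that rose were TNFRSF10B, a receptor of the death ligand TRAIL (1.47 and 2.10), CD55, another regulator of complement (0.81 and 0.83), and BST2 (1.02 and 0.74) in both lines, TNFRSF10A, a second TRAIL receptor, in control cells (0.93; in the other line 0.57, or 0.87 and called without the array that stood apart) and LAX1 in LP-1-cIAP2-eGFP cells (0.86). KIT, a receptor tyrosine kinase, lay below detection on all treated arrays at 24 h, which places it at least 8.90-fold lower in control and at least 2.77-fold lower in LP-1-cIAP2-eGFP cells, while a second probe gave -0.98 and -1.39 and was not called. GPRC5D fell in LP-1-cIAP2-eGFP cells to 5.23, not above background on the array that stood apart, and 6.89, a fitted change of -4.21 (SE 0.432, adjusted p = 0.000112) that was -3.38 without that array. In control cells GPRC5D read 5.97 and 5.61 and gave -0.98 (adjusted p = 0.156, or 0.00662 without that array), and the difference between the lines of -3.23 (SE 0.611) had an adjusted p of 0.152.

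Plasma cell markers were followed in the same comparisons. None of the 8 was called in the average line effect by limma, and 3 had an unadjusted p under 0.05, whereas in single conditions POU2AF1 was called higher under bortezomib at 24 h (1.13, adjusted p = 0.00391). With bortezomib at 24 h, 4 fell and 1 rose in control cells, whereas LP-1-cIAP2-eGFP cells had 4 that fell and 2 that rose. Among all probes 11.2% fell and 9.81% rose in control cells, and 17.5% and 11.1% in LP-1-cIAP2-eGFP cells. MZB1 (-1.92 and -2.09), XBP1, the secretory transcription factor of plasma cells (-1.72 and -1.20), and PRDM1, the master regulator of plasma cells (-0.95 and -1.47), fell in both lines, although a second PRDM1 probe was not called in either line (-0.48 and -0.59). IRF4, a factor on which myeloma cells depend, fell in LP-1-cIAP2-eGFP cells (-1.46) and gave -0.61 in control cells, where it was called without the array that stood apart (adjusted p = 0.0292). SEL1L3, a marker of antibody-secreting cells, rose by 5.05 in control cells (SE 0.440) and by 4.0 in LP-1-cIAP2-eGFP cells. POU2AF1, a B lineage coactivator, fell in control cells (-0.75, adjusted p = 0.00721) and rose in LP-1-cIAP2-eGFP cells (0.55, adjusted p = 0.0278), where without the array that stood apart it gave 0.45 (adjusted p = 0.0867). The part of these markers in the fall of the antigens was not tested.

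Of 9 B cell markers 5 were tested. BCL6, the repressor of germinal center B cells, was the 1 called in the average line effect (fitted value -1.88, SE 0.189, adjusted p = 0.000117). The call was lost with normexp (-0.86). In untreated cells at 6 h BCL6 was at least 2.18-fold lower in LP-1-cIAP2-eGFP cells, where neither array was above background. At 24 h BCL6 rose by 1.83 and 2.50, and CR2, a complement receptor, lay at least 20.5-fold lower in control and at least 6.20-fold lower in LP-1-cIAP2-eGFP cells. A second CR2 probe gave -1.55 and -1.78 and was not called. The summed signal of the list lay between 11.06 and 11.48 on control and between 11.27 and 13.39 on LP-1-cIAP2-eGFP arrays, the highest being the array that stood apart. Of 8 tested T and NK cell markers 0 were called by limma in the average line effect or with bortezomib at 24 h, with 2 at an unadjusted p under 0.05 in the average line effect, 0 in control and 2 in LP-1-cIAP2-eGFP cells. In single conditions GNLY was called lower in LP-1-cIAP2-eGFP cells under bortezomib at 24 h (-3.75, adjusted p = 0.0247), and without the array that stood apart it gave -2.13 (adjusted p = 0.0127). Without that array GNLY was also called lower in the average line effect (-2.10), and CD4 with bortezomib at 24 h in control cells (-0.85, adjusted p = 0.0024) and in LP-1-cIAP2-eGFP cells (-0.74, adjusted p = 0.0157), the latter against 0.36 with it. CD3E was above background on 10 of 16 arrays. Their summed signal lay between 13.57 and 14.48 on control and between 13.48 and 15.71 on LP-1-cIAP2-eGFP arrays. Of the myeloid markers 3 were tested, and 0 were called in the average line effect, with 1 at an unadjusted p under 0.05, while ITGAM was called lower in untreated LP-1-cIAP2-eGFP cells, at least 2.18-fold at 6 h, where neither of their arrays was above background, and by a difference of -1.77 at 24 h. With bortezomib at 24 h ITGAM fell (-2.34) and CD68 rose (1.85) in control cells, although CD68 was not called on the authors' normalized values (1.78), CSF1R was above background on 0 of 16 arrays and CD14 on 13 of 16, and the summed signal lay between 6.72 and 7.82 on control and between 5.99 and 8.79 on LP-1-cIAP2-eGFP arrays. Of the stromal and epithelial markers 3 were tested, 1 of them PECAM1. None of the 3 was called in the average line effect by limma, with 3 at an unadjusted p under 0.05. Beside PECAM1 only KRT18 was called with bortezomib at 24 h, in LP-1-cIAP2-eGFP cells (0.73, adjusted p = 0.0373), and without the array that stood apart COL1A1 was called lower there, with no fold that could be bounded. COL1A2 was above background on 0 of 16 arrays, EPCAM on 2 and COL1A1 on 10, and the summed signal lay between 10.96 and 13.48 on control and between 10.05 and 12.71 on LP-1-cIAP2-eGFP arrays.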

How the data were processed

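Gene expression was measured on Agilent SurePrint G3 arrays in 1 colour. Per the file headers, Feature Extraction 10.7.3.1 made the deposited intensity values, with background subtracted and no normalization across arrays. A table of log2 values from the authors, quantile normalized and centred per probe, served as an alternative, and each column correlated with its own array (r at least 0.998). Here, outlier spots were left out, spots averaged on the log2 scale and arrays quantile normalized in limma 3.58.1 (R 4.3.3). Probes detected on both replicates of 1 or more conditions (33731) were fitted with a mean per condition (lmFit, contrasts.fit, eBayes; 1.61 prior degrees of freedom), with Benjamini-Hochberg adjustment over all of them. The fit was tested on simulated data. Symbols were matched through RefSeq accessions (28170 probes, 55.7%). Lower-bound folds were computed against the lowest signal well above background on each array, or the probe's own signal where that was higher. An undetected probe can read above that lowest signal, so every fold given as "at least" is approximate and may be too high. The members and gene lists were chosen with earlier results of these data known. Named were all members, BIRC3, up to 4 called genes per list by size, defining markers and those with the brightest probe, and the 3 genes most correlated with SLAMF7 and TNFRSF13B; LAX1, CD86, GNLY, IL6R, CD9, CD74, FGFR3, ITGA4, CXCR4, CD59, TNFRSF10A, TNFRSF10B, CD55, BST2, HS2ST1, PAX5, CSF1R, COL1A2, ADAM17, SDC4, EXT2, POU2AF1, GLCE, NCAM1, CD2 and CD79A were named after their values were seen. Alternatives were another scaling (75th percentile), background correction by normexp (offset 50), other filters, blocks for slide or replicate number, array weights, averaged probes, other tests, and each array left out in turn. Values of a few genes that these rules name are not reported here.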

Additional observations from a re-analysis of the deposited data

Results flagged for a closer look

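POU2AF1 read lower in control cells and higher in LP-1-cIAP2-eGFP cells with bortezomib at 24 h, though the latter was not called without replicate 1 of the treated arrays (0.45, adjusted p = 0.0867) or with 75th percentile scaling (0.23). Its untreated and treated arrays read 14.76 and 14.48 against 13.85 and 13.88 in control cells, and 14.44 and 14.46 against 15.09 and 14.90 in LP-1-cIAP2-eGFP cells. The difference of the 2 effects was 1.30 (SE 0.223), and it did not pass the test of the difference (limma, adjusted p = 0.110).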

How the results depend on the processing

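The members called in a comparison were recounted under each alternative. The filter on all 16 arrays, which drops SLAMF7, CD27, CD28 and CD40, gave 1 for the average line effect, 1 for untreated cells at 24 h, 1 for treated cells at 24 h, 1 for the difference at 24 h and 1 for time. In this order it called 384, 1317, 2583, 80 and 10 probes, in place of 799, 933, 1996, 24 and 3. An adjusted p under 0.05 with no fold limit gave 6 for the average, when 5428 probes were called in place of 799. Array weights gave 5 for untreated cells at 6 h (4710 probes in place of 1041). They gave 1 for treated cells at 24 h (95 in place of 1996) and 1 for time (22 in place of 3). The mean of the probes gave 4 for untreated cells at 6 h (981 calls in all). No filter gave 1 for treated cells at 24 h (1376 probes in place of 1996). It gave 0 for bortezomib at 6 h in LP-1-cIAP2-eGFP cells (154 in place of 366), as did 75th percentile scaling (218) and the slide block (160). Normexp gave 3 for bortezomib at 24 h in control cells (6242 in place of 7080). The cause was not tested except for the filter.

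Leaving out each array in turn gave 2 to 2 for the average, 2 to 4 and 2 to 3 for untreated cells at 6 h and 24 h, 2 to 3 and 1 to 6 for treated cells, 0 to 1 at 6 h in both lines, 3 to 6 and 4 to 6 at 24 h in control and LP-1-cIAP2-eGFP cells, and 0 to 0, 0 to 5 and 0 to 0 for the differences at 6 h and 24 h and for time. The upper ends of 6 and 5 came without LP-1-cIAP2-eGFP bortezomib 24 h replicate 2, when 14322 and 9338 probes were called in place of 1996 and 24. CD28 turned from 0.38 to -1.69 in control cells at 24 h when its probes were averaged. Of 1170 gene values, 1107 were counted as the same, 46 as weaker, 16 as stronger and 1 as reversed. An uncalled value counted as the same while it stayed uncalled, whatever its size, and 15 of these changed sign. Leaving out an array outside a comparison cannot move its difference, so the count of the same does not measure robustness. SLAMF7 kept its average call throughout (4.15 to 5.90). SDC1 lost the call at 6 h in LP-1-cIAP2-eGFP cells under 15 of 25 alternatives (-0.96 to -0.89), whereas SDC1, CD38 and TNFRSF13B kept theirs for bortezomib at 24 h in both lines under every alternative run. TNFRSF17 lost its call at 24 h in control cells under 5 (-1.59 to -1.35), normexp and each of the 4 control arrays at 24 h left out. SDC1 lost its average call under 1, the comparison of the lines as 2 groups. Of the 16 members and list genes called in the average line effect, 16 kept the call with 75th percentile scaling, 12 with normexp and 15 on the authors' values. For bortezomib at 24 h these were 43, 43 and 47 of 49 in control and 46, 54 and 57 of 58 in LP-1-cIAP2-eGFP cells, with 0 changes of sign. Among the lost were EXT2 in both lines with percentile scaling and normexp, BST2 in both and ADORA2A in control, CD70, POU2AF1 and KRT18 in LP-1-cIAP2-eGFP cells with percentile scaling, TNFRSF10A in control and NT5E in LP-1-cIAP2-eGFP cells with normexp, PRDM1 in control with normexp and the authors' values, and SULF1 in LP-1-cIAP2-eGFP cells with percentile scaling and the authors' values.

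Replicate numbers did not pair the samples: 7 of 28 correlations of deviations exceeded 0.1 (-0.11 to 0.239). The replicate block called 800 probes for the average line effect, 7925 and 10559 probes for bortezomib at 24 h in control and LP-1-cIAP2-eGFP cells, and as many members as without it. Scaling to the 75th percentile moved the median of all probes from -0.16 to 0.21 for bortezomib at 24 h in LP-1-cIAP2-eGFP cells, from -0.11 to 0.11 for the line effect there, from -0.02 to 0.08 for its average and from -0.14 to 0.05 for the difference at 24 h. It moved the share of higher calls from 70.2% (257 higher and 109 lower) to 81.7% (178 and 40) for bortezomib at 6 h in LP-1-cIAP2-eGFP cells, and from 66.7% (16 higher and 8 lower) to 77.8% (7 and 2) for the difference at 24 h. The 2 arrays a condition limit the precision, and SLAMF7 lay near background in control cells.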
